A study of Mus musculus with 35 samples.

Results

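The genes described here are 10 genes that the colonocyte, the absorptive cell of the colon surface, uses to move ions, water and small solutes: Aqp8, Slc26a3, Car1, Car4, Slc9a3, Scnn1b, Slc5a8, Slc20a1, Trpm6 and Ms4a12. They were taken by symbol from a list of named genes, drawn up with earlier results of these data known, and make up 10 of the 19908 genes measured. Each of the 10 was measured by 1 probe set, the group of short DNA probes that reads 1 gene.

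The colons of 35 C57BL/6N mice, in 7 groups of 5, had each been profiled on a Mouse Gene 1.0 ST array (Affymetrix). Mice are named here by the end of their label, a genotype or arm and a number. Dextran sodium sulfate (DSS), a polymer that injures the colon lining when drunk, was given at 3% ad libitum for 5 days and was followed by plain water, and colons were taken at day 12. The conventional groups were Reg3a-transgenic mice given DSS, wild-type mice given DSS, untreated Reg3a-transgenic mice and untreated wild-type mice. The axenic (germ-free) groups, all given DSS, were recipients of flora of transgenic donors, recipients of flora of wild-type donors, and controls. The flora was transplanted 3 weeks ahead of DSS. The label of the controls puts DSS ahead of a transfer of intestinal microbes, so they need not have been without microbes at collection. A characteristic of the conventional mice also names a microbial transfer, which their titles and the design text do not, and the titles were followed. The sources used here do not give the promoter or species of the Reg3a transgene, the genotype of the axenic recipients, or the age and cage of the mice. Sex is not labelled either, but Xist, the RNA of the inactive X chromosome, was at least 10.86 in 2 mice per conventional group and at most 5.38 in every other mouse, all axenic mice among them. With the Xist signal as a covariate, the calls among the 10 genes in the conventional comparisons stayed as they were. Nothing in the labels says whether mice of a group shared a cage or a litter. The p-values weigh group differences against the spread between these mice and treat each mouse as independent. An effect of a shared cage or litter could not be told apart from that of the group.

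As background, the colon absorbs sodium, chloride, short-chain fatty acids and water, and dries the stool as it does so. Sodium enters surface cells through the sodium-proton exchanger Slc9a3 and the epithelial sodium channel, of which Scnn1b is a subunit. Chloride enters in exchange for bicarbonate through Slc26a3, and carbonic anhydrases such as Car1 and Car4 interconvert carbon dioxide and bicarbonate. Water follows the absorbed salt, and several of these genes are used as marks of mature surface colonocytes.

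The label of the tissue was checked against marker genes. Epithelial Epcam read 11.36 to 12.24 and smooth muscle Myh11 read 9.63 to 12.28 (log2 signal, range over the 35 mice), whereas the small intestinal gene Sis read 4.69 to 5.27. The samples therefore held epithelium and muscle wall, although the series title speaks of colon epithelial cells. In such bulk tissue, fewer cells of a type and less RNA per cell cannot be told apart. Some arrays stood apart. Axenic controls CT517 and CT229 had the lowest goblet cell marker means of all arrays (11.74 and 12.65), and DSS wild-type mouse WT55 combined a low epithelial mean (10.53) with a high leukocyte mean (9.32). RNA of pancreas genes was high (a list mean above 8) in 12 mice, 4 of them recipients of wild-type flora. The spread of values within an array (SD over probe sets) was 1.90 to 2.03 in recipients of wild-type flora, against 1.64 to 1.78 in axenic controls.

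The regulatory sequence before the start of 3 of the genes is shown because these genes moved in different directions under DSS. Aqp8 and Slc26a3 fell in wild-type mice, and Ms4a12 rose in transgenic mice. Each run holds the 250 bases before the start of the RefSeq gene (GRCm38.p6), 5′ to 3′ on the strand of the gene. Capitals mark TTTAT, the core of the site of the intestinal factors Cdx1 and Cdx2, and CAAAG, the core of the site of Hnf4a, on either strand (ATAAA and CTTTG where they lie on the other strand). ATAAA is also part of TATAAA, the letters of a TATA box.
Aqp8, chr7:123462044-123462293, plus strand: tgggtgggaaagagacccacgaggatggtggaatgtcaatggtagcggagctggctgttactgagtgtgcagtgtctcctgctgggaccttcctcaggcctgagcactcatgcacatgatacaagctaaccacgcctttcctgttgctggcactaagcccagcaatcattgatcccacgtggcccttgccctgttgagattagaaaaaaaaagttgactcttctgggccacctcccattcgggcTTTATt
Slc26a3, chr12:31437969-31438218, plus strand: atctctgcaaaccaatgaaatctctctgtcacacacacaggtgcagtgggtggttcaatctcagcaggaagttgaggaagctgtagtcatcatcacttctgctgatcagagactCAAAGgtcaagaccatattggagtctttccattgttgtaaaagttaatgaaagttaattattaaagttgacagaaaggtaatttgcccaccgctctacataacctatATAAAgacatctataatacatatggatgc
Ms4a12, chr19:11232454-11232703, minus strand: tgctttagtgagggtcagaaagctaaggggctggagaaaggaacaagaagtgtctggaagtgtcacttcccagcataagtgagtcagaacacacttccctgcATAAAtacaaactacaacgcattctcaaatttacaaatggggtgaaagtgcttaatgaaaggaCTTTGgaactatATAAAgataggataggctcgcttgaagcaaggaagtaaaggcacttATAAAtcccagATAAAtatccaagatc
The Aqp8 window held TTTAT at 6 bases before the start and no CAAAG. The Slc26a3 window held ATAAA at 29 and CAAAG at 136 bases before the start. The Ms4a12 window held ATAAA at 4 places, 148, 73, 27 and 16 bases before the start, and CTTTG at 85 bases. Among 32851 windows of the same length before mouse gene starts, 37.3% held TTTAT and 48.6% held CAAAG on either strand. Of the 10 genes 9 had an entry among the promoter sequences used and Car1 had none. Slc20a1 (at each of its starts) and Trpm6, which also fell in wild-type mice, held no match of either kind, and nor did Car4 and Slc9a3. Scnn1b held CAAAG only, and Slc5a8 held a match of each kind. These matches describe letters only.

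**Figure D1:**
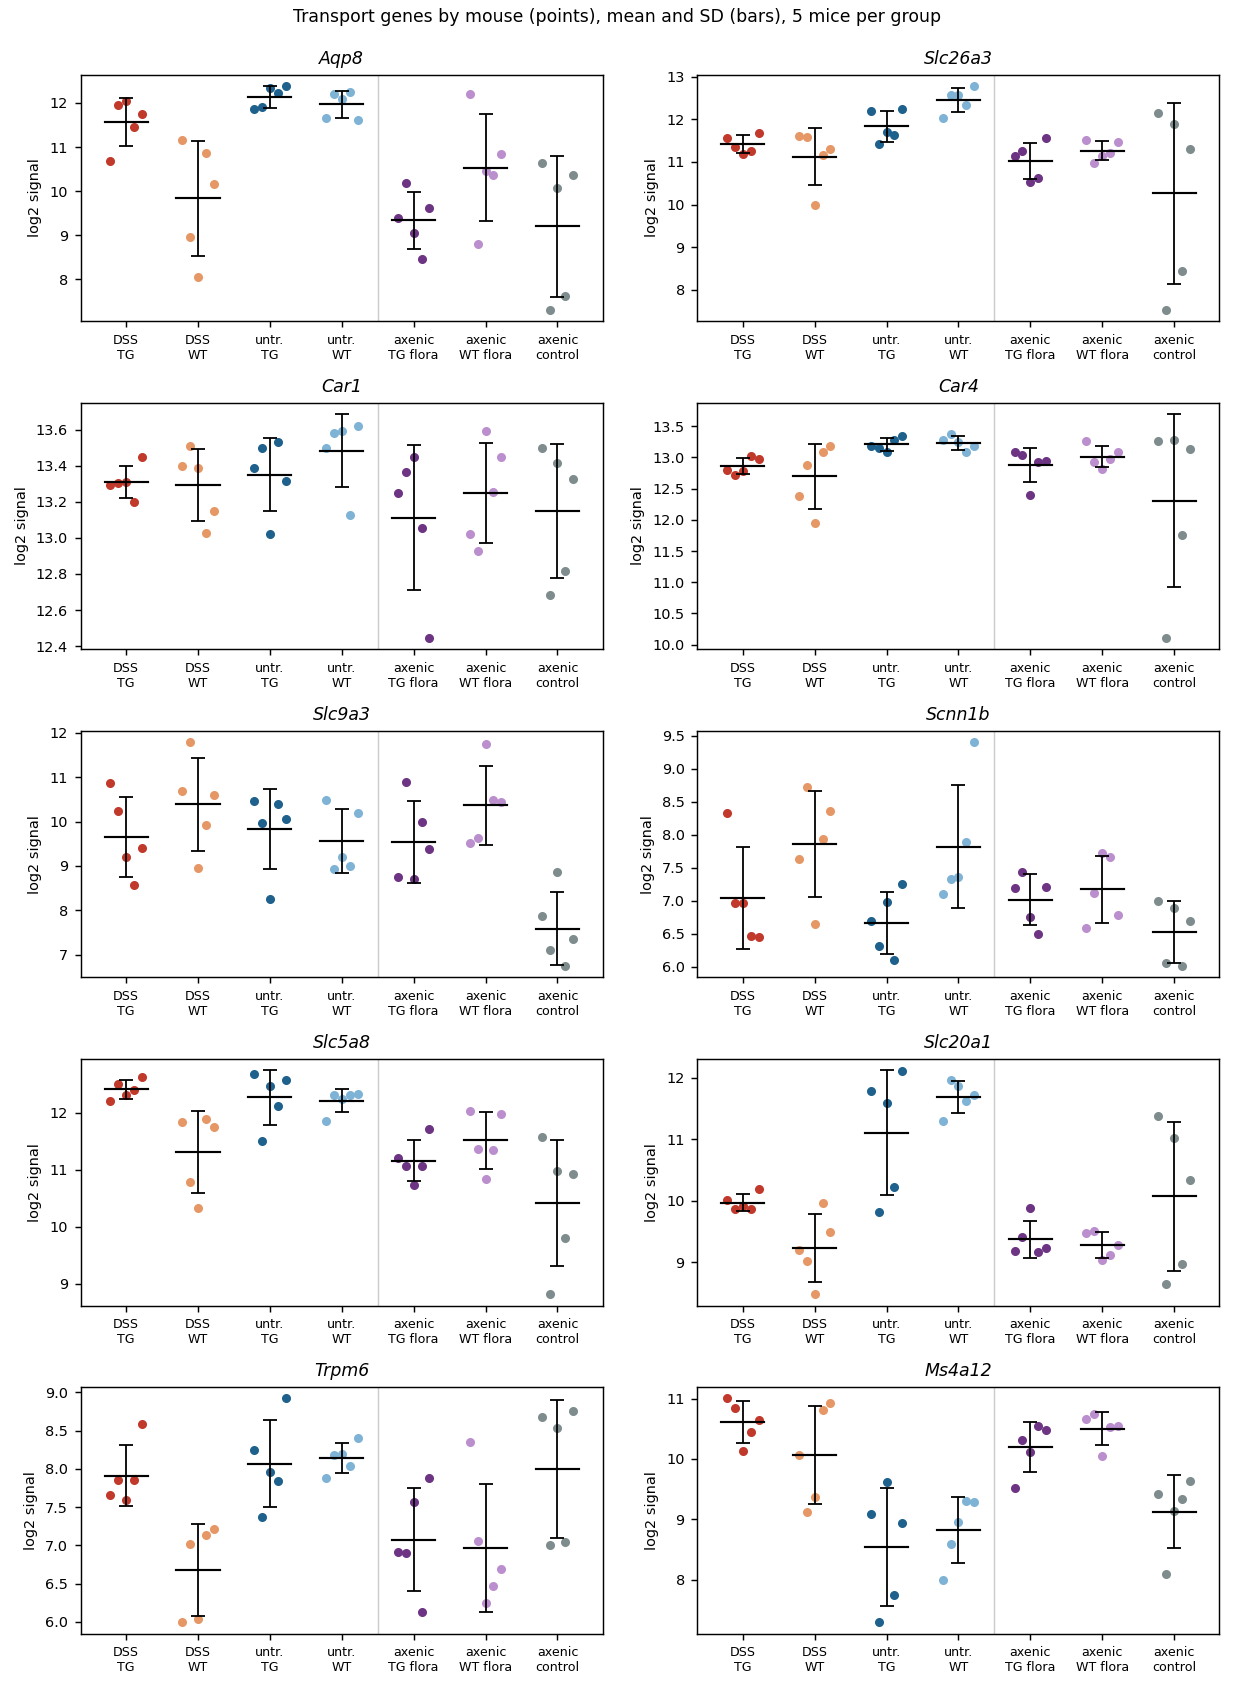
Log2 signal of the 10 transport genes in each mouse (points), with the group mean (long bar) and SD (error bar) of 5 mice, in DSS transgenic (TG), DSS wild-type (WT), untreated (untr.) transgenic and untreated wild-type mice and in axenic recipients of transgenic flora, recipients of wild-type flora and controls. Axes differ between panels and do not start at 0. Slc20a1 lay at 8.48 to 9.97 in DSS wild-type mice, below all untreated wild-type mice, and Slc9a3 lay at 6.74 to 8.86 in axenic controls, below all recipients of wild-type flora.

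The signal of the genes was first compared across groups. Signals of different probe sets cannot be set against each other, so each gene was ranked among all genes by its mean over the 35 mice only to show where on the scale it lay. Car1 and Car4 lay at the 99.91st and 99.81st percentile, Slc5a8, Slc26a3 and Aqp8 between 97.33 and 99.1, Slc20a1, Ms4a12 and Slc9a3 between 92.68 and 95.56, and Trpm6 and Scnn1b at 64.68 and 56.58. Group means spanned 2.95 log2 units for Aqp8, 2.80 for Slc9a3, 2.46 for Slc20a1 and 2.20 for Slc26a3. They spanned 0.37 for Car1, close to its largest SD within a group (0.40). When the 7 groups were ordered by mean for each gene, no 2 neighbours in the order were free of overlap, for any of the 10 genes. Untreated wild-type or untreated transgenic mice had the highest mean of Aqp8, Slc26a3, Car1, Car4, Slc20a1 and Trpm6. Ms4a12 had its lowest means in those 2 groups.

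The first comparison set 5 wild-type mice given DSS against 5 left untreated. The water channel gene Aqp8, the chloride-bicarbonate exchanger gene Slc26a3, the phosphate transporter gene Slc20a1 and the magnesium channel gene Trpm6 fell, and the other 6 genes did not pass the test. A change was called at an adjusted p under 0.05 in limma, with Benjamini-Hochberg adjustment over all 19908 genes. By that rule 4 of 10 transport genes were called, where 5.13% of all genes were called in either direction and 2.13% lower. The 4 called genes were also the 4 whose groups did not overlap, where 6.16% of all genes did not. With quantile normalization 6 were called, 1 higher and 5 lower, and 9.06% of all genes. The median change of the 10 genes was -0.71 and that of all genes was -0.02.

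Aqp8, which conducts water across the colonocyte membrane, read 11.15, 10.87, 10.15, 8.95 and 8.05 in DSS wild-type mice, against 12.25, 12.21, 12.09, 11.66 and 11.62 in untreated wild-type mice. Every DSS mouse was below every untreated mouse, and the SD was 1.31 in DSS mice and 0.30 in untreated mice. The change was -2.13 (SE 0.51, n = 5 each, adjusted p = 0.0382 in limma), a 4.37-fold lower signal. The call was lost when any 1 of untreated mice WT7, WT8, WT9, WT10 and WT11 or of DSS mice WT52 and WT56 was left out (change -1.91 to -2.22, adjusted p from 0.0591 to 0.100).

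Slc26a3, which takes up chloride in exchange for bicarbonate, read 11.62, 11.58, 11.29, 11.16 and 9.98 in DSS wild-type mice, against 12.79, 12.57, 12.56, 12.33 and 12.04 in untreated wild-type mice. The groups did not overlap, and DSS mouse WT55 was lowest. The change was -1.33 (SE 0.28, 95% interval -1.96 to -0.70, adjusted p = 0.0238). Leaving out untreated mouse WT7, WT8 or WT10 or DSS mouse WT53 ended the call (change -1.25 to -1.34, adjusted p from 0.0502 to 0.0701), as did fitting all 35 arrays in 1 model (adjusted p = 0.121). The carbonic anhydrases did not pass. Car4, anchored to the outer membrane, averaged 12.70 ± 0.52 in DSS mice and 13.23 ± 0.11 in untreated mice (SD, n = 5 each), a change of -0.54 (SE 0.21, adjusted p = 0.214). Car1, a cytosolic form, averaged 13.30 ± 0.20 in DSS mice and 13.48 ± 0.20 in untreated mice (change -0.19, SE 0.13, adjusted p = 0.606).

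The sodium genes had no called change. Slc9a3 averaged 10.39 ± 1.05 in DSS wild-type mice and 9.56 ± 0.73 in untreated wild-type mice (change 0.83, 95% interval -0.24 to 1.90, adjusted p = 0.494). Scnn1b averaged 7.86 ± 0.80 in DSS mice and 7.82 ± 0.93 in untreated mice (change 0.04, 95% interval -0.99 to 1.07, adjusted p = 0.994). Both intervals reached past 1 log2 unit on the higher side, so a 2-fold rise lay within them.

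Among the genes for solutes and minerals, Slc20a1 changed most. Slc20a1 encodes a sodium-coupled phosphate transporter and read 9.97, 9.49, 9.20, 9.02 and 8.48 in DSS wild-type mice, against 11.97, 11.86, 11.73, 11.62 and 11.29 in untreated wild-type mice. All DSS mice were below all untreated mice, and the lowest was again mouse WT55. The change was -2.46 (SE 0.24, 95% interval -2.99 to -1.93, adjusted p = 0.000434), a 5.51-fold lower signal. Trpm6, a channel through which the colon takes up magnesium, read 7.21, 7.13, 7.01, 6.04 and 5.99 in DSS mice, against 8.40, 8.20, 8.18, 8.03 and 7.89 in untreated mice. It changed by -1.46 (SE 0.25, adjusted p = 0.00950). Slc20a1 and Trpm6 stayed called whichever of the 10 mice was left out. Slc5a8, which takes up short-chain fatty acids with sodium, averaged 11.32 ± 0.72 in DSS mice and 12.21 ± 0.20 in untreated mice (change -0.89, SE 0.29, adjusted p = 0.122).

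Ms4a12 encodes a membrane protein that in human colon marks surface colonocytes. It went the other way, at 10.93, 10.81, 10.07, 9.37 and 9.13 in DSS wild-type mice, against 9.30, 9.28, 8.96, 8.59 and 7.99 in untreated wild-type mice. DSS mouse WT56 overlapped the untreated mice. The change of 1.24 (SE 0.38) did not pass (adjusted p = 0.0975), and it passed without DSS mouse WT56 (1.47, adjusted p = 0.0376).

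Marker lists moved with these changes. The mean of 8 posterior Hox genes, which are expressed toward the rear of the gut, was 6.27 to 6.64 in DSS wild-type mice, against 6.82 to 7.87 in untreated wild-type mice, and 5 of the 8 were called lower. The leukocyte mean (7 genes, 5 called higher) was 7.09 to 9.32 in DSS mice, against 6.43 to 6.66 in untreated mice, and neither list overlapped. Of 6 crypt stem cell genes 5 were called lower. The epithelial mean (12 genes, 1 called higher) overlapped, at 10.53 to 11.47 in DSS mice and 11.20 to 11.41 in untreated mice. With the posterior Hox mean as a covariate no transport gene was called, but only 9 of all genes were, and the median SE over all genes was 0.27, against 0.15 without it. Slc20a1 then changed by -1.65 (adjusted p = 0.132), Aqp8 by -1.17 (0.431), Trpm6 by -0.77 (0.274) and Slc26a3 by -0.72 (0.377). With the smooth muscle mean as a covariate Slc20a1 alone of the 10 was called (1.56% of all genes), while the Aqp8 change was -2.03, that of Trpm6 -1.37 and that of Slc26a3 -0.999. With the pancreas mean (2.76% of all genes called) Aqp8 changed by -2.44 and did not pass (adjusted p = 0.0689). With the epithelial mean as a covariate 9.02% of all genes were called and 6 of the 10, the 4 named above, Slc5a8 (-0.76, adjusted p = 0.0332) and Ms4a12 (1.36, adjusted p = 0.0243). Since the posterior Hox means of the 2 groups did not overlap, DSS and the stretch of colon taken cannot be told apart in these mice.

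The same comparison was made in transgenic mice. Ms4a12 rose and Car4 fell by a small amount, and the other 8 genes did not pass, Aqp8, Slc26a3 and Trpm6 among them. By the same rule 2 of 10 were called, where 4.55% of all genes were, and these 2 were the genes whose groups did not overlap, where 8.7% of all genes did not. With quantile normalization 4 were called, 1 higher and 3 lower, and 5.64% of all genes. The median change of the 10 genes was -0.16 and that of all genes was -0.01.

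Ms4a12 read 11.01, 10.85, 10.65, 10.44 and 10.12 in DSS transgenic mice, against 9.61, 9.09, 8.94, 7.75 and 7.29 in untreated transgenic mice. Every DSS mouse was above every untreated mouse. The change was 2.08 (SE 0.39, 95% interval 1.22 to 2.93, adjusted p = 0.0185), a 4.22-fold higher signal. Without DSS mouse TG48 it was 2.02 with adjusted p = 0.0556. With the within-array SD as a covariate it was 1.59 (adjusted p = 0.0588, 1.76% of all genes called). With the epithelial mean it was 1.85 (adjusted p = 0.696), in a fit that called 0 of all genes. With the posterior Hox mean as a covariate it passed (2.27, adjusted p = 0.00197). The epithelial mean was 11.43 to 11.63 in DSS transgenic mice, against 11.18 to 11.42 in untreated transgenic mice, without overlap. Leukocyte means (6.91 to 8.81 in DSS mice, 6.402 to 6.64 in untreated mice, 1 of 7 genes called higher) and goblet cell means (13.56 to 13.64 in DSS mice, 13.31 to 13.52 in untreated mice, 1 of 4 called higher) also did not overlap. Mouse TG49 set the top of the leukocyte means at 8.81, and the next DSS mouse, TG48, had 7.19. In transgenic mice the Hox mean was 6.76 to 6.93 under DSS, against 6.50 to 7.69 in untreated mice, and 0 of its 8 genes were called by limma.

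Car4 read 13.02, 12.98, 12.80, 12.78 and 12.72 in DSS transgenic mice, against 13.35, 13.28, 13.18, 13.15 and 13.09 in untreated transgenic mice. The change was -0.35 (SE 0.09, adjusted p = 0.0439), a 1.27-fold lower signal, with an SD of 0.13 in DSS mice and 0.10 in untreated mice. The call was lost whichever of the 10 mice was left out, untreated TG26, TG28, TG29, TG31 and TG631 or DSS TG44, TG46, TG47, TG48 and TG49 (change -0.32 to -0.39, adjusted p from 0.0530 to 0.117).

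Aqp8 read 12.04, 11.95, 11.75, 11.46 and 10.69 in DSS transgenic mice, against 12.39, 12.33, 12.24, 11.90 and 11.85 in untreated transgenic mice. The change was -0.57 (SE 0.23, adjusted p = 0.151). Slc20a1 lay close together in DSS transgenic mice (9.86 to 10.19) and was split in untreated transgenic mice, at 12.11, 11.79, 11.60, 10.23 and 9.81. Mice TG28 and TG31 were the low ones. The Slc20a1 change of -1.14 (SE 0.39) had an adjusted p of 0.102, and without mouse TG31 it was -1.46 with adjusted p = 0.0363. Slc26a3 changed by -0.43 (adjusted p = 0.139), Trpm6 by -0.16 (0.709), Slc5a8 by 0.14 (0.650), Slc9a3 by -0.17 (0.828), Scnn1b by 0.38 (0.481) and Car1 by -0.04 (0.805).

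**Figure D2:**
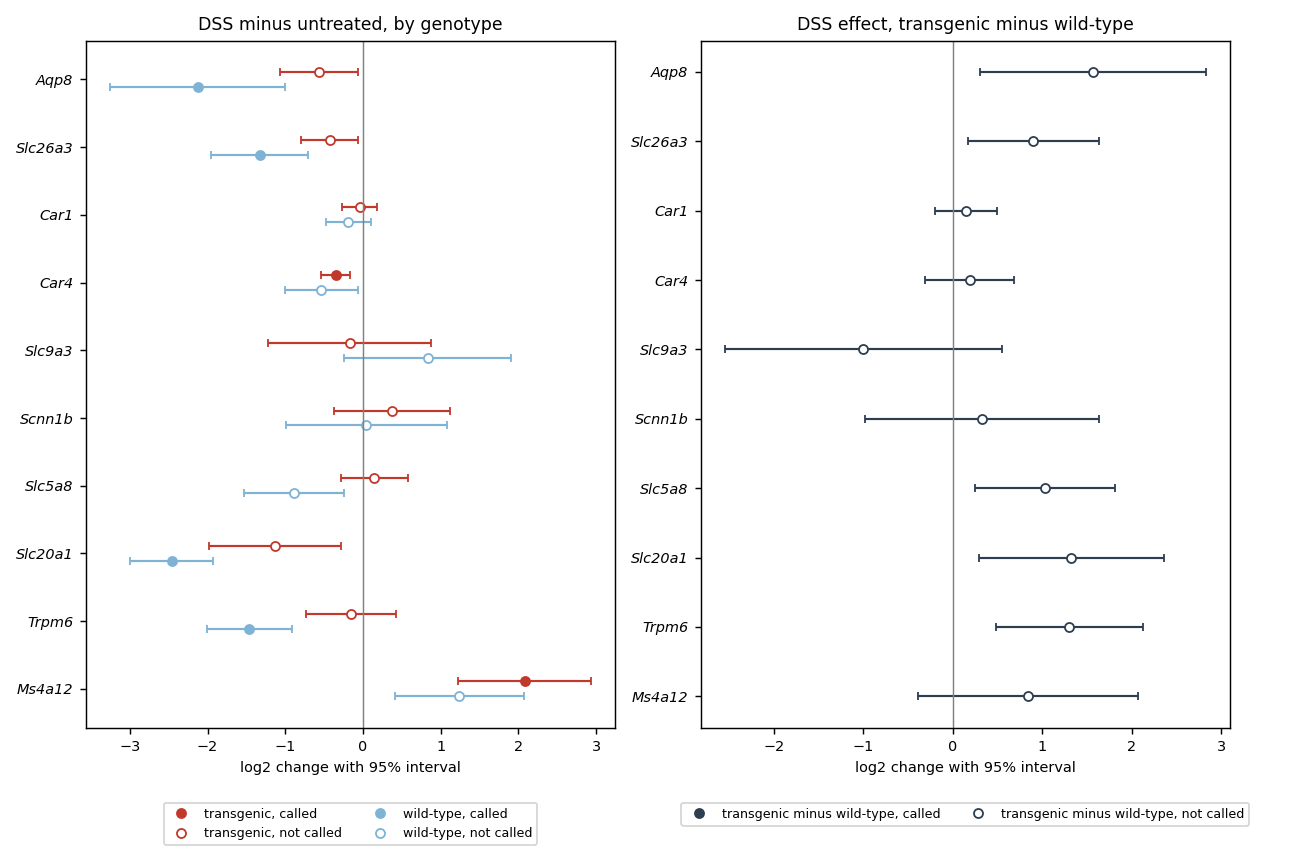
Left, log2 change (DSS minus untreated) of each transport gene in transgenic and wild-type mice. Right, the DSS change in transgenic minus that in wild-type mice. Points are estimates from limma with 95% intervals, 5 mice per group, and filled points passed an adjusted p under 0.05. Slc20a1, Aqp8, Trpm6 and Slc26a3 were called lower in wild-type mice, and no difference between genotypes was called.

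Whether the DSS change depended on genotype was tested as the difference between the 2 changes, in 1 model over the 4 conventional groups. By limma 0 of 10 genes were called, where 0.156% of all genes were, and 5 of the 10 had an unadjusted p under 0.05, as had 7.42% of all genes. The difference was positive in 9 of 10 genes and in 45.2% of all genes, and the 10 genes share the same 20 mice. The median difference was 0.87, and over all genes it was -0.02. Marker lists moved in the same test without a called gene. The median was 0.90 over 8 posterior Hox genes (7 positive) and 0.30 over 12 epithelial genes (10 positive). It was 0.49 over 6 crypt stem cell genes (6 positive) and -0.41 over 7 leukocyte genes (2 positive). The part of the crypt stem cell and leukocyte genes in the result was not tested. Aqp8 differed by 1.56 (95% interval 0.30 to 2.83, adjusted p = 0.481), Slc20a1 by 1.32 (0.29 to 2.36, adjusted p = 0.448) and Trpm6 by 1.30 (0.49 to 2.12, adjusted p = 0.265). Slc5a8 differed by 1.03 (0.25 to 1.81, adjusted p = 0.427) and Slc26a3 by 0.90 (0.17 to 1.63, adjusted p = 0.489). For these 5 the unadjusted p was 0.00344 to 0.0186. Posterior Hox and epithelial means were covariates in some of 32 alternative fits, none of which called any of the 5. Over these fits the difference ran from 0.93 to 1.89 for Aqp8, 0.15 to 1.57 for Slc20a1 and 0.71 to 1.52 for Trpm6. It ran from 0.28 to 1.18 for Slc5a8 and 0.48 to 1.02 for Slc26a3. Slc9a3 was the exception in sign, at -1.001 (-2.55 to 0.54, adjusted p = 0.895).

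The genotypes were also compared within each condition. In untreated mice, transgenic against wild-type, 0 of 10 genes were called by limma and 2 had an unadjusted p under 0.05. Of all genes 0.0753% were called and 5% had such a p. No transport gene was free of overlap, where 1.12% of all genes were. The 2 were Scnn1b, at 6.67 ± 0.47 in transgenic and 7.82 ± 0.93 in wild-type mice (change -1.15, adjusted p = 0.856), and Slc26a3, at 11.84 ± 0.36 in transgenic and 12.46 ± 0.29 in wild-type mice (change -0.62, adjusted p = 0.706). The other 8 genes differed by -0.59 to 0.27. Wild-type mouse WT10 set the upper end of Scnn1b at 9.40, against 7.88 in the next mouse.

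Under DSS, transgenic against wild-type, 0 of 10 were called by limma, 4 had an unadjusted p under 0.05, and of all genes 0.00502% were called and 5.17% had such a p. The groups did not overlap for 2 of the 10, where 1.57% of all genes did not. These were Slc5a8, at 12.62, 12.51, 12.40, 12.31 and 12.21 in transgenic mice, against 11.90, 11.83, 11.76, 10.79 and 10.32 in wild-type mice, and Trpm6. Trpm6 read 8.59, 7.86, 7.86, 7.65 and 7.60 in transgenic mice, against 7.21, 7.13, 7.01, 6.04 and 5.99 in wild-type mice. Slc5a8 changed by 1.09 (SE 0.29, adjusted p = 0.397) and Trpm6 by 1.23 (SE 0.28, adjusted p = 0.310), each higher in all 5 transgenic mice but not past the threshold. Aqp8 changed by 1.74 (SE 0.55, adjusted p = 0.580) and Slc20a1 by 0.74 (SE 0.23, adjusted p = 0.566). The other 6 genes differed by -0.82 (Scnn1b) to 0.55 (Ms4a12). The leukocyte mean was 6.91 to 8.81 in transgenic mice, against 7.09 to 9.32 in wild-type mice, and the posterior Hox mean was 6.76 to 6.93 in transgenic mice, against 6.27 to 6.64 in wild-type mice. Of 12 epithelial genes 12 were higher in transgenic mice, and of 6 crypt stem cell genes 6, where 46.3% of all genes were. None of these was called, and 4 of the 6 did not overlap. The crypt stem cell mean was 7.14 to 7.37 in transgenic mice, against 6.76 to 6.88 in wild-type mice. The part of leukocytes and of crypt stem cell genes was not tested. The posterior Hox mean was a covariate in 1 of 22 alternative fits, and the epithelial mean in 1. Over these 22 fits the change ran from -0.02 to 1.23 for Slc5a8 and from 0.22 to 1.37 for Trpm6. It ran from 0.17 to 2.07 for Aqp8 and from -0.28 to 0.92 for Slc20a1.

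Axenic recipients of wild-type flora were set against axenic controls, both under DSS. Slc9a3, Ms4a12 and Scnn1b were higher in the recipients, but most genes on the array also differed between these groups. By limma 3 of 10 were called, all higher, where 67.3% of all genes were called and 32.1% higher. Of the 10, 2 did not overlap, where 44.7% of all genes did not, so the share of transport genes called was not above that of the array. With quantile normalization 3 were called, 2 higher and 1 lower, and 33.3% of all genes. The recipients had the wider spread of values within an array without overlap, and the array spread and the flora cannot be told apart. The median change of the 10 was 0.85. Over all genes it was -0.03, and over genes whose mean signal was above the 40th percentile, as it was for all 10, it was 0.35.

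Slc9a3, the main exchanger of sodium for protons at the colon surface, read 11.74, 10.48, 10.45, 9.63 and 9.52 in recipients of wild-type flora, against 8.86, 7.88, 7.35, 7.10 and 6.74 in axenic controls. All recipients were above all controls, and all 5 controls were also below the mean of every other group. The change was 2.78 (SE 0.46, 95% interval 1.77 to 3.78, adjusted p = 0.000785), a 6.86-fold higher signal. Ms4a12 read 10.74, 10.65, 10.55, 10.52 and 10.05 in recipients, against 9.64, 9.42, 9.33, 9.14 and 8.10 in controls. It also did not overlap and changed by 1.38 (SE 0.25, adjusted p = 0.00128). Both stayed called whichever mouse was left out. With the epithelial mean as a covariate the Slc9a3 change was 2.05 (adjusted p = 0.124) and the Ms4a12 change 0.52 (adjusted p = 0.324), while Slc20a1 (-2.56, adjusted p = 0.0325) and Trpm6 (-2.54, adjusted p = 0.0493) were called lower, where 6.21% of all genes were called. With the within-array SD as a covariate they were 3.13 and 0.02, and neither passed (adjusted p = 1.0), in a fit that called 1 gene of all. With the pancreas mean as a covariate (9.86% of all genes called) Slc9a3 changed by 1.60 (adjusted p = 0.0719). The epithelial mean was 11.22 to 11.59 in recipients, against 10.35 to 11.07 in controls, and the pancreas mean was 6.20 to 10.86 in recipients, against 6.10 to 7.95 in controls. The leukocyte mean was 7.63 to 9.87 in recipients, against 6.66 to 8.30 in controls, and its part was not tested.

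Scnn1b averaged 7.18 ± 0.51 in recipients of wild-type flora and 6.53 ± 0.47 in controls, and the groups overlapped. The change was 0.65 (SE 0.26, adjusted p = 0.0480). It did not pass without any 1 of recipients WT793, WT639 and WT597 or controls CT517, CT229 and CT093 (change 0.51 to 0.69, adjusted p from 0.0585 to 0.115). The call was also lost with array weights (adjusted p = 0.120), all 35 arrays in 1 model (0.137) and quantile normalization (0.0749). With the epithelial, posterior Hox, within-array SD or pancreas covariate it was lost too, so that 8 of 22 alternatives called Scnn1b.

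The other genes were split within the controls. Controls CT517 and CT229 read 7.52 and 8.45 for Slc26a3, where the other 3 controls read 11.29 to 12.15, and they read 10.10 and 11.76 for Car4, where the other 3 read 13.13 to 13.28. The same 2 mice were the lowest controls for 9 of the 10 genes. For Ms4a12 mouse CT517 was the lowest and mouse CT229 was not. These 2 mice were picked after the data were seen. Leaving out the lowest controls raises the control mean and narrows its spread, so calls without them are no independent support. Without CT517 and CT229, Slc26a3 changed by -0.51 (SE 0.19, adjusted p = 0.0428), a called fall, against 1.01 (SE 0.80, adjusted p = 0.277) with all 5 controls. Slc20a1 then changed by -1.63 (adjusted p = 0.000952) and Trpm6 by -1.69 (adjusted p = 0.00661), against -0.79 (0.150) and -1.03 (0.0657) with all 5. Slc9a3 (2.33, adjusted p = 0.00430) and Ms4a12 (1.102, adjusted p = 0.00141) stayed called, and Scnn1b did not (0.32, adjusted p = 0.291), so that 5 of 10 were called, where 61.2% of all genes were. Car4 (-0.22) and Car1 (-0.16) also changed sign without them, neither called in either fit. Slc20a1 read 9.51, 9.48, 9.28, 9.11 and 9.04 in the recipients, against 11.39, 11.02, 10.34, 8.97 and 8.65 in the controls. The 2 low values were those of mice CT229 and CT517. Leaving out control CT517 alone brought Slc20a1 (-1.14, adjusted p = 0.0294) and Trpm6 (-1.29, adjusted p = 0.0324) past the threshold, and leaving out control CT229 alone brought Trpm6 (-1.28, adjusted p = 0.0317) past it. Leaving out recipient WT880 did so for Trpm6 (-1.38, adjusted p = 0.0117). Slc5a8, at 11.51 ± 0.50 in recipients and 10.42 ± 1.099 in controls, changed by 1.09 (adjusted p = 0.0512). It passed without recipient WT639 or control CT677, CT465 or CT093 (1.22 to 1.38, adjusted p from 0.0182 to 0.0492). Aqp8 (1.33, adjusted p = 0.135), Car4 (0.70, adjusted p = 0.248) and Car1 (0.10, adjusted p = 0.634) did not pass.

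**Figure D3:**
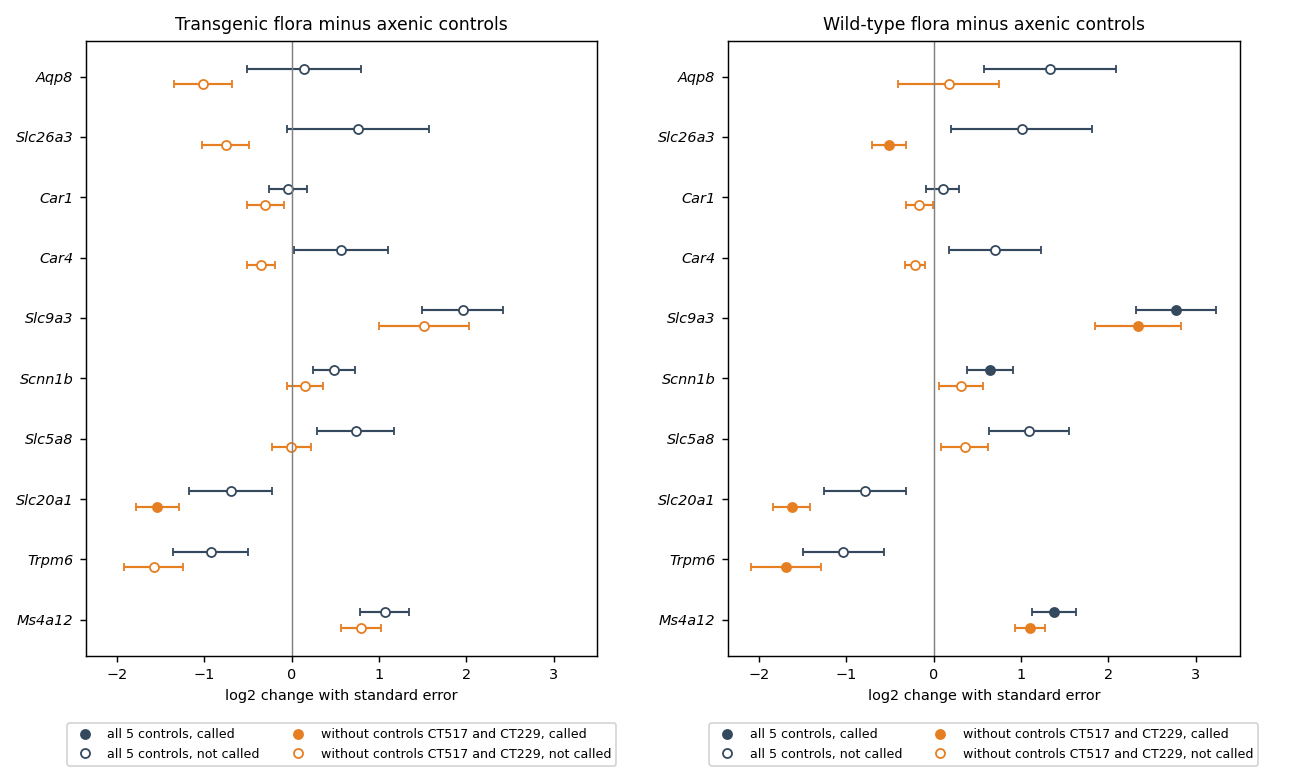
Log2 change of each transport gene in axenic recipients of transgenic flora (left) and of wild-type flora (right) minus axenic controls, with all 5 controls and without controls CT517 and CT229. Points are limma estimates with standard errors, and filled points passed an adjusted p under 0.05. The 2 controls, lowest for most of the genes, were picked after the data were seen. Without the 2 controls the estimates of Slc26a3 and Car4 changed sign in both panels, that of Car1 with wild-type flora and those of Aqp8 and Slc5a8 with transgenic flora, and of these Slc26a3 with wild-type flora was called (-0.51). Slc9a3 and Ms4a12 were called in both fits with wild-type flora and in neither with transgenic flora.

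Recipients of transgenic flora were set against the same axenic controls. By limma 0 of 10 genes were called and 2 had an unadjusted p under 0.05, Slc9a3 and Ms4a12, as had 18.1% of all genes. Of all genes 0.337% were called, and no transport gene was free of overlap, where 2.75% of all genes were. Slc9a3 read 10.90, 9.99, 9.38, 8.74 and 8.69 in recipients, against 8.86, 7.88, 7.35, 7.10 and 6.74 in controls. Its change was 1.96 (SE 0.47, adjusted p = 0.105), and without recipient TG922 it was 2.16 with adjusted p = 0.0163. Ms4a12 averaged 10.19 ± 0.41 in recipients and 9.13 ± 0.60 in controls (change 1.07, SE 0.28, adjusted p = 0.125), and without recipient TG922 it changed by 1.24 (adjusted p = 0.0148). Without that mouse 23 of 67 other transport genes were called too, against 1 with all mice. Over all genes, leaving out 1 mouse gave 27 to 5307 called, against 67 with all mice. The calls of Slc9a3 and Ms4a12 without TG922 were therefore not particular to these 2 genes. Slc20a1 changed by -0.70 (adjusted p = 0.419), and without controls CT517 and CT229 by -1.54 (adjusted p = 0.0241). That fit left out 2 low controls picked after the data were seen. With the smooth muscle mean as a covariate Slc9a3 (2.51, adjusted p = 0.0150) and Ms4a12 (1.78, adjusted p = 0.00315) were called, where 38.7% of all genes were. That mean was 9.45 to 10.42 in recipients, against 10.08 to 10.95 in controls. The leukocyte mean was 7.96 to 9.52 in recipients, against 6.66 to 8.30 in controls, and its part was not tested. The other 7 of the 10 transport genes changed by -0.92 (Trpm6) to 0.76 (Slc26a3).

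The donors were compared directly, transgenic against wild-type flora. By limma 0 of 10 genes were called, as were 0% of all genes, and 1 of the 10, Aqp8, had an unadjusted p under 0.05, as had 34.4% of all genes. No transport gene was free of overlap, where 7.43% of all genes were. Aqp8 read 10.19, 9.61, 9.39, 9.05 and 8.45 with transgenic flora, against 12.19, 10.84, 10.45, 10.35 and 8.80 with wild-type flora (change -1.19, 95% interval -2.32 to -0.05, adjusted p = 0.135). Slc9a3 averaged 9.54 ± 0.92 with transgenic flora and 10.36 ± 0.89 with wild-type flora (change -0.82, adjusted p = 0.227). The other 8 genes differed by -0.36 to 0.11, and the ends of their 95% intervals lay between -0.88 and 1.004. Over 21 alternative fits the Aqp8 change ran from -1.70 to 0.24. The smooth muscle mean was 9.45 to 10.42 with transgenic flora, against 10.37 to 11.10 with wild-type flora. The epithelial mean was 10.78 to 11.30, against 11.22 to 11.59. Of 10 smooth muscle and 12 epithelial genes 0 were higher with transgenic flora, but 7 of 8 posterior Hox genes were, none called.

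Other transport genes of the colon were followed as a list of 72, of which 67 were measured. In DSS wild-type mice 13 of the 67 were called, 3 higher and 10 lower, with a median change of -0.27. Of all genes 5.13% were called in that fit, with a median change of -0.02. Carbonic anhydrase genes lay on both sides. Car12, a membrane form, rose by 2.32 (adjusted p = 0.00113) and Car8, a related protein without enzyme activity, rose by 1.51 (adjusted p = 0.0204). Car2, the abundant cytosolic form, fell by 1.35 on the log2 scale (adjusted p = 0.0110). Atp1b3, a subunit of the sodium pump, rose by 0.83 (adjusted p = 0.0494). The potassium genes Kcnq1, a basolateral channel, and Atp12a, the proton-potassium pump of the distal colon, changed by -1.36 (adjusted p = 0.00190) and -2.64 (adjusted p = 0.00775). Fxyd4, a regulator of the sodium pump, changed by -2.20 (adjusted p = 0.00728) and the chloride channel gene Ano1 by -1.84 (adjusted p = 0.0106). Slc9a3r1, a scaffold that binds Slc9a3, changed by -0.70 (adjusted p = 0.00954). With quantile normalization (9.06% of all genes called) 26 were called, 4 higher and 22 lower.

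In transgenic mice 1 of the 67 was called under DSS, where 4.55% of all genes were. It was Slc5a12, a relative of Slc5a8, at -0.41 (adjusted p = 0.0342). The difference between genotypes was called for 2 of the 67 and for 0.156% of all genes. Ms4a10, of the same family as Ms4a12, averaged 7.79 ± 0.21 in DSS transgenic and 7.38 ± 0.25 in untreated transgenic mice, and 7.34 ± 0.08 in DSS wild-type and 7.88 ± 0.18 in untreated wild-type mice (difference 0.96, SE 0.17, adjusted p = 0.0293). Slc9a3r1 averaged 10.27 ± 0.04 in DSS transgenic and 10.21 ± 0.17 in untreated transgenic mice, and 9.99 ± 0.25 in DSS wild-type and 10.69 ± 0.04 in untreated wild-type mice (difference 0.76, SE 0.14, adjusted p = 0.0407). Leaving out 1 mouse gave 0 to 4 called genes of the list and 4 to 59 over all genes. After quantile normalization 1 gene of the list was called that was neither Ms4a10 nor Slc9a3r1. Between genotypes within a condition and between donors, 0 of the 67 were called by limma, with 17 at an unadjusted p under 0.05 in untreated mice (25.4%), 21 under DSS (31.3%) and 28 between donors (41.8%). Of all genes 5%, 5.17% and 34.4% had such a p.

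With wild-type flora against axenic controls 47 of the 67 were called, 34 higher and 13 lower, a share of the list near that of the array (67.3%). The water channel gene Aqp4 was higher by 1.86 (adjusted p = 0.000105), Car13 by 1.30 (adjusted p = 0.000180), the chloride channel gene Clcn2 by 1.46 (adjusted p = 0.000263) and Car12 by 2.39 (adjusted p = 0.000456). Prss8, a protease that activates the sodium channel, was higher by 1.36 (adjusted p = 0.000305) and Gucy2c, the receptor of guanylin, by 1.40 (adjusted p = 0.000469). Fxyd4 was lower, at 6.42 ± 0.20 in recipients and 7.95 ± 0.66 in controls (change -1.53, adjusted p = 0.000983). After quantile normalization 20 were called, 12 higher and 8 lower, and 33.3% of all genes. With transgenic flora 1 of the 67 was called, Aqp4, at 1.35 (adjusted p = 0.0483), where 0.337% of all genes were called. Both comparisons share the 5 controls.

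How the 10 genes varied together within groups was described by Pearson's r over the 35 mice, after the mean of its group was taken from each value. The mice share arrays, tissue makeup and processing across genes, and no p is given. Of the 45 pairs the highest was Slc26a3 with Car4 (r = 0.89), followed by Slc26a3 with Slc5a8 (0.83) and Car4 with Slc5a8 (0.79). These rested in part on controls CT517 and CT229, without which they were 0.56, 0.70 and 0.53 over 33 mice. Slc9a3 and Scnn1b, the genes of sodium uptake, had r = 0.51 with each other, and Slc9a3 had r between -0.11 and 0.13 with Aqp8, Slc5a8, Slc20a1, Trpm6 and Ms4a12. The lowest pair was Car1 with Ms4a12, at -0.29 and at -0.53 without the 2 controls.

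Marker lists varied with them. The epithelial mean had r of 0.48 to 0.69 with 9 of the 10 genes and 0.24 with Car1. Without the 2 controls it was 0.31 with Slc20a1 (0.54 with them), 0.29 with Trpm6 (0.48 with them), -0.03 with Car1 and 0.43 to 0.61 with the other 7. The posterior Hox mean had r = 0.70 with Ms4a12, 0.52 with Trpm6 and 0.50 with Slc20a1, against -0.49 with Slc9a3 and -0.34 with Car1. Without the 2 controls these were 0.70, 0.57, 0.59, -0.53 and -0.46. Ms4a12 also had r = 0.70 with the within-array SD. The leukocyte mean had r = -0.67 with Aqp8 and -0.58 with Car4. The goblet cell mean had r = 0.95 with Car4 and 0.77 without the 2 controls.

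**Figure D4:**
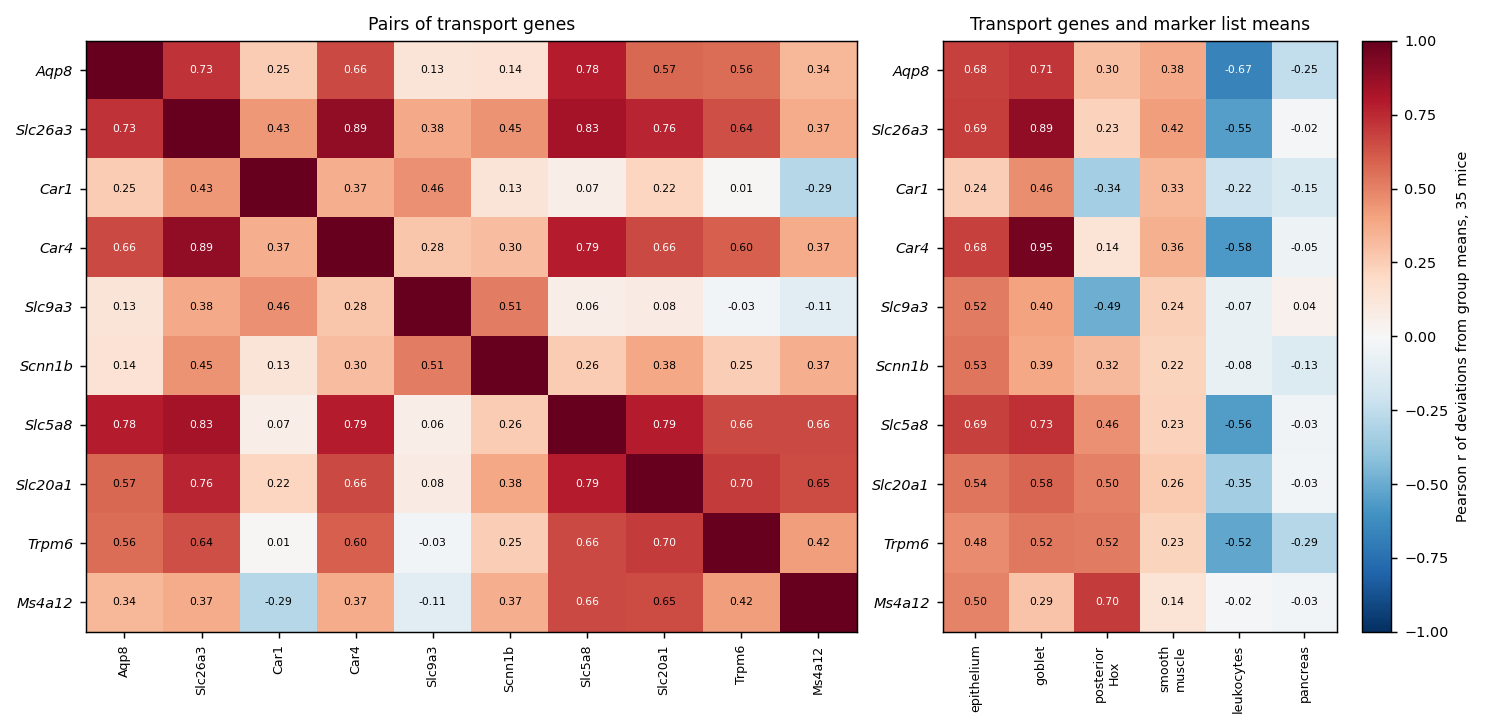
Pearson's r over 35 mice of deviations from group means, between pairs of transport genes (left) and between transport genes and the mean of each marker list (right). Colour runs from -1 (blue) to 1 (red) and each cell prints its r. Slc26a3, Car4 and Slc5a8 have r of 0.79 to 0.89 with each other, and Slc9a3 and Ms4a12 have opposite signs with the posterior Hox mean (-0.49 and 0.70).

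For each gene the 3 named genes of highest r on the same measure were listed, the transport genes themselves left out. Slc26a3 was most like Pigr, the receptor that carries antibodies across the epithelium (0.97, and 0.84 without the 2 controls), and the vitamin D receptor gene Vdr (0.93, and 0.80 without them). Car4 was most like the goblet cell gene Clca1 (0.96 and 0.78 without them), Aqp8 like Cbr1 (0.89 and 0.82) and Car1 like Guca2a, the gene of guanylin (0.78 and 0.71). Slc9a3 was most like Cdx2 (0.79 and 0.80), a transcription factor of the intestine, and Scnn1b like Fkbp5 (0.86 and 0.85), with Scnn1g, the gene of another subunit of its channel, among its first 3 (0.82 and 0.83). Slc5a8 was most like the chemokine gene Ccl28 (0.93 and 0.86), Slc20a1 like Cyp2d12 (0.89 and 0.80) and the iron exporter gene Slc40a1 (0.89 and 0.80), Trpm6 like Abat (0.83 and 0.75) and Atp12a (0.82 and 0.74), and Ms4a12 like Lrrc19 (0.90 and 0.89).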

How the data were processed

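Total RNA (200 ng) of 35 mouse colons had been put on Mouse Gene 1.0 ST arrays, as the labels' protocols state. The deposited log2 values were made by the authors with RMA in Affymetrix Expression Console 1.1, per the submitters' processing notes, so background correction, quantile scaling and probe summary were already done. RMA scales the probe values of every array alike, which can move genes when the makeup of the tissue differs. The deposited values per probe set still differed between arrays, with medians of 6.65 to 6.95 and SDs of 1.64 to 2.03. The number of arrays also limits the precision. GEO's platform annotation gave 1 symbol for 21639 of 28090 probe sets, several for 1539 and none listed for 4912. For 990 genes with over 1 probe set the brightest was kept, which left 19908 genes.

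Each comparison was fitted with limma 3.58.1 in R 4.3.3 on the mice of its own groups (4 groups for the difference between the DSS effects), with Benjamini-Hochberg adjustment over all genes and a threshold of 0.05. Intervals are 95% intervals of limma, not adjusted. The alternatives tried were quantile normalization, array weights, trended and robust variance, 1 model over all arrays, a filter at the 40th percentile of signal, marker means as covariates and leaving out each mouse. The within-array SD, pancreas and Xist covariates and the fit without controls CT517 and CT229 were chosen after seeing the data. The procedure was tested on simulated data. The 10 genes, the list of other transport genes and the marker lists were chosen with earlier results of these data known. Named are all 10 genes, up to 6 called genes of the transport list per direction by smallest p, and the 3 genes most like each of the 10. Sequences are those of RefSeq (GRCm38.p6).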

Additional observations from a re-analysis of the deposited data

Results flagged for a closer look

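In 7 of the 70 sets of 5 mice (10 genes in 7 groups), 1 mouse lay far from the other 4 by Dixon's test, which chance gives in about 1 set in 20. Slc26a3 read 9.98 in DSS wild-type mouse WT55, below the other 4. Car1 read 13.13 in untreated wild-type mouse WT11 and Slc5a8 read 11.85 in untreated wild-type mouse WT9, each the lowest of its group. Car4 read 12.40 in TG713, a recipient of transgenic flora, and Slc9a3 read 8.25 in untreated transgenic mouse TG29, again the lowest. Scnn1b read 8.34 in DSS transgenic mouse TG49 and Trpm6 read 8.59 in DSS transgenic mouse TG44, each the highest of its group.

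The DSS change differed between the genotypes, by the test of that difference, for 2 of the 67 other transport genes and for 0 of the 10 genes. Of all genes 0.156% were called. For Ms4a10 the change in transgenic mice minus that in wild-type mice was 0.96, and for Slc9a3r1 it was 0.76.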

How the results depend on the processing

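No paired analysis was possible because the groups compared share no mouse numbers. Over the 10 genes, 8 comparisons and all alternatives, 1738 of 1850 changes kept their side of the threshold, 58 were no longer called and 53 became called. Of the 1738, 120 changed sign, all of them uncalled. The single reversal was Slc26a3 with wild-type flora, at -0.51 without controls CT517 and CT229, where a direction counts as reversed only when either value was called. The causes were not tested.

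Counts of called genes are given for the 10 genes first, for the list of 67 after them and, where 3 are given, over all genes last. For DSS in wild-type mice (4, 13 and 1022), array weights gave 7, 41 and 5843, the smooth muscle covariate 1, 5 and 310 and the posterior Hox covariate 0, 0 and 9. The list count was 23 with all 35 arrays (1870 over all genes), 26 with quantile normalization (1804), 23 with the epithelium covariate (1795) and 30 with the within-array SD (3573). Leaving out 1 mouse gave 2 to 4 and 9 to 15. For DSS in transgenic mice (2, 1 and 905), array weights gave 4, 16 and 3266, quantile normalization 4, 7 and 1123, the posterior Hox covariate 1, 4 and 694, and the smooth muscle, within-array SD and pancreas covariates 1 and 0 each, with 522, 350 and 202 over all genes. The epithelium covariate gave 0, 0 and 0, all 35 arrays gave 1 of the 10 (600 over all genes), and the 40th-percentile filter, which tests fewer genes, 0 of the list. Leaving out 1 mouse gave 0 to 2 and 0 to 5. For the difference between genotypes no alternative called any of the 10. The list count (2) was 7 with array weights, 5 with the within-array SD, 1 with quantile normalization, trended and robust variance or the epithelium covariate, 0 with the smooth muscle or posterior Hox covariate, and 0 to 4 with 1 mouse left out. The count over all genes (31) also moved in this test. It was 4 to 59 with 1 mouse left out and 0 to 232 over the other alternatives.

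Between genotypes (0 and 0 in each), array weights gave 2 of the list in untreated mice and 2 and 12 under DSS, where Scnn1b (-1.12, adjusted p = 0.0229) and Trpm6 (0.88, adjusted p = 0.0291) were called. All 35 arrays gave 3 and the within-array SD 2 of the list under DSS, and leaving out 1 mouse gave 0 of both in either condition. Between donors (0 and 0), array weights gave 1, Aqp8 (-1.42, adjusted p = 0.0485), and 25, and all 35 arrays gave 9 of the list. Leaving out 1 mouse gave 0 of the 10 and 0 to 23 of the list, with 23 without recipient TG749. For wild-type flora (3 and 47), all 35 arrays gave 5, the smooth muscle covariate 5, the within-array SD 0 and 0, the pancreas covariate 1 and 13, and the fit without CT517 and CT229 5. Quantile normalization gave 20 and the epithelium covariate 9 of the list, and leaving out 1 mouse gave 2 to 4 and 41 to 48. For transgenic flora (0 and 1), array weights gave 4 and 26, all 35 arrays 1 and 7, the smooth muscle covariate 2 and 32, and the fit without CT517 and CT229 1 and 2. The epithelium, posterior Hox, within-array SD and pancreas covariates gave 0 of the list. Leaving out 1 mouse gave 0 to 2 and 0 to 23, the highest without recipient TG922. Over all genes, the alternatives other than leaving out 1 mouse called 4 to 58 between genotypes in untreated mice and 1 to 339 under DSS. They called 0 to 4886 between donors, 1 to 13990 for wild-type flora and 29 to 7711 for transgenic flora.

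Over all genes, leaving out 1 mouse moved the number called from 1022 to between 424 and 1277 for DSS in wild-type mice, and from 905 to between 178 and 1668 in transgenic mice. It moved from 0 to up to 4700 between donors and from 67 to between 27 and 5307 for transgenic flora, so those adjusted p-values turn on single mice. Car1 and Car4 lie at the top of the signal range of these arrays, and Scnn1b and Trpm6 nearer its middle.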
